A study of Mus musculus with 23 samples.

Results

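The transcript levels of 9 genes for transcription factors of the intestinal epithelium were followed through a mouse experiment on fecal microbiota transplantation (FMT) after busulfan. The genes were Gata4 and Gata6, Cdx1 and Cdx2, Hnf4a and Hnf4g, Klf4 and Klf5, and Sox4. They were found by symbol through the NCBI Gene numbers of the expression table. All 9 were among its 19215 entries, and all 9 were among the 11337 genes that were tested, those whose mean reached 1 FPKM. FPKM gives the fragments assigned to a gene relative to its length and to the size of the library.

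The samples were 23 libraries of small intestine RNA from ICR mice, in 4 treatments and 2 sets. All groups had received busulfan, an alkylating anticancer drug, once at 40 mg/kg at 3 weeks of age, so no group shows the intestine without the drug. Sa mice were then given saline. Con-FMT mice were given gut contents of donors dosed with water, A10-FMT mice those of donors dosed with alginate oligosaccharides (AOS) at 10 mg/kg, and A100-FMT mice those of donors dosed at 100 mg/kg. The contents of the donors of a treatment were pooled before transfer, so the recipients of a group shared 1 inoculum. By the study's methods FMT was given daily for 1 week and mice were sampled at 5 weeks of age. The sets are 2 codes in the sample names, whose meaning the sources used here do not give, and which of these times applies to which set is not stated. Every group had 3 libraries except Sa of set 1, which had 2 (numbered 1 and 3). Libraries are numbered within groups without a statement that each number was a separate mouse, so p-values measure the spread between libraries. Column sums ran from 556466 to 667957 FPKM, and the number of reads behind them is not known here.

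These factors divide the work of keeping the gut epithelium intestinal. CDX2 and CDX1 are homeobox proteins that set intestinal as opposed to gastric fate, HNF4A and HNF4G are paralogous nuclear receptors that drive the genes of absorptive enterocytes on villi, and GATA4 and GATA6 are zinc finger proteins of which GATA4 is known for keeping the jejunum distinct from the ileum. KLF4 and KLF5 are Krüppel-like factors with opposite places along the crypt-villus axis, KLF4 in differentiated cells that have left the cycle and KLF5 in dividing crypt cells, and SOX4 is an HMG-box protein of crypt progenitors.

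The libraries were those of an epithelium-rich tissue. Krt8 (2533 FPKM), Krt19 (2385 FPKM) and Lgals4 (2276 FPKM) led the list of epithelial genes, which summed to a median of 11132 FPKM, against 0.91 FPKM for 7 endothelial markers, 0.79 FPKM for 8 markers of enteric neurons and glia, 1.89 FPKM for 10 macrophage markers and 2.27 FPKM for 10 markers of B and plasma cells. The 9 smooth muscle markers summed to 75.65 FPKM and the 9 T cell markers to 50.46 FPKM, with 26.64 to 157.79 FPKM for T cells over single libraries. The most abundant genes were Mylk (66.9 FPKM) for smooth muscle, Gzma (48.9 FPKM) for T cells and Fbln1 (34.8 FPKM) for fibroblasts, while Tagln of smooth muscle was at 1.24 FPKM and Col3a1 of fibroblasts at 0.065 FPKM. The 11 pancreatic acinar markers summed to 4.39 FPKM, and the 8 stomach and colon markers to 117.38 FPKM, nearly all of it Car4 (115.007 FPKM). Defining markers of the intestinal epithelium were thus high, and 1 library stood apart before any comparison was made. Sa replicate 3 of set 1 had deviations from the other libraries that followed the GC content of genes (Spearman's rho = 0.69 across genes), while rho lay between -0.221 and 0.22 in the other 22 libraries. Its title and its description name different columns, and the column of the title was used. The other column, used only as an alternative, had a rho of -0.087. The library held the highest level of Gata4 (66.86 FPKM), Cdx1 (218.21 FPKM) and Cdx2 (136.54 FPKM), and the lowest of Gata6 (28.89 FPKM), Hnf4g (34.65 FPKM) and Klf4 (22.88 FPKM). Every comparison with Sa in set 1 rests on this library and 1 other, and is therefore given with and without it. The comparisons between FMT groups hold no Sa library.

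The factors were transcribed at very different levels, which FPKM allows to be compared per length. Hnf4a had the highest mean over the 23 libraries (255 FPKM, above 96.8% of the genes tested), followed by Cdx1 (144 FPKM), Klf5 (129 FPKM), Cdx2 (107 FPKM), Hnf4g (71.1 FPKM), Gata4 (52.9 FPKM), Klf4 (38.8 FPKM), Gata6 (35.3 FPKM) and Sox4 (8.68 FPKM). Hnf4a was above Cdx1, Cdx2 above Hnf4g and Gata6 above Sox4 in 23 of 23 libraries, Hnf4g above Gata4 in 22 and Gata4 above Klf4 in 20. The order of neighbours was less fixed for Klf5 over Cdx2 (19 libraries), Cdx1 over Klf5 (15 libraries) and Klf4 over Gata6 (13 libraries), so Klf4 and Gata6 had no stable order. A median of 12.9 FPKM over the genes tested lay above Sox4 only.

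The factors also varied to different degrees. Over the 22 libraries without Sa replicate 3 of set 1, the coefficient of variation was 3.97% for Hnf4a, 4.48% for Cdx2 and 5.03% for Gata6, against 9.72% for the median gene tested. Gata4 (6.73%) and Hnf4g (8.5%) also lay below that median, Cdx1 (10.4%) and Klf5 (12.2%) a little above it, and Klf4 (20%) and Sox4 (19.5%) above 86.3% and 85.7% of the genes tested. The highest library had 1.15 times the Hnf4a level of the lowest, 2.06 times the Klf4 level and 2.31 times the Sox4 level.

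**Figure D1:**
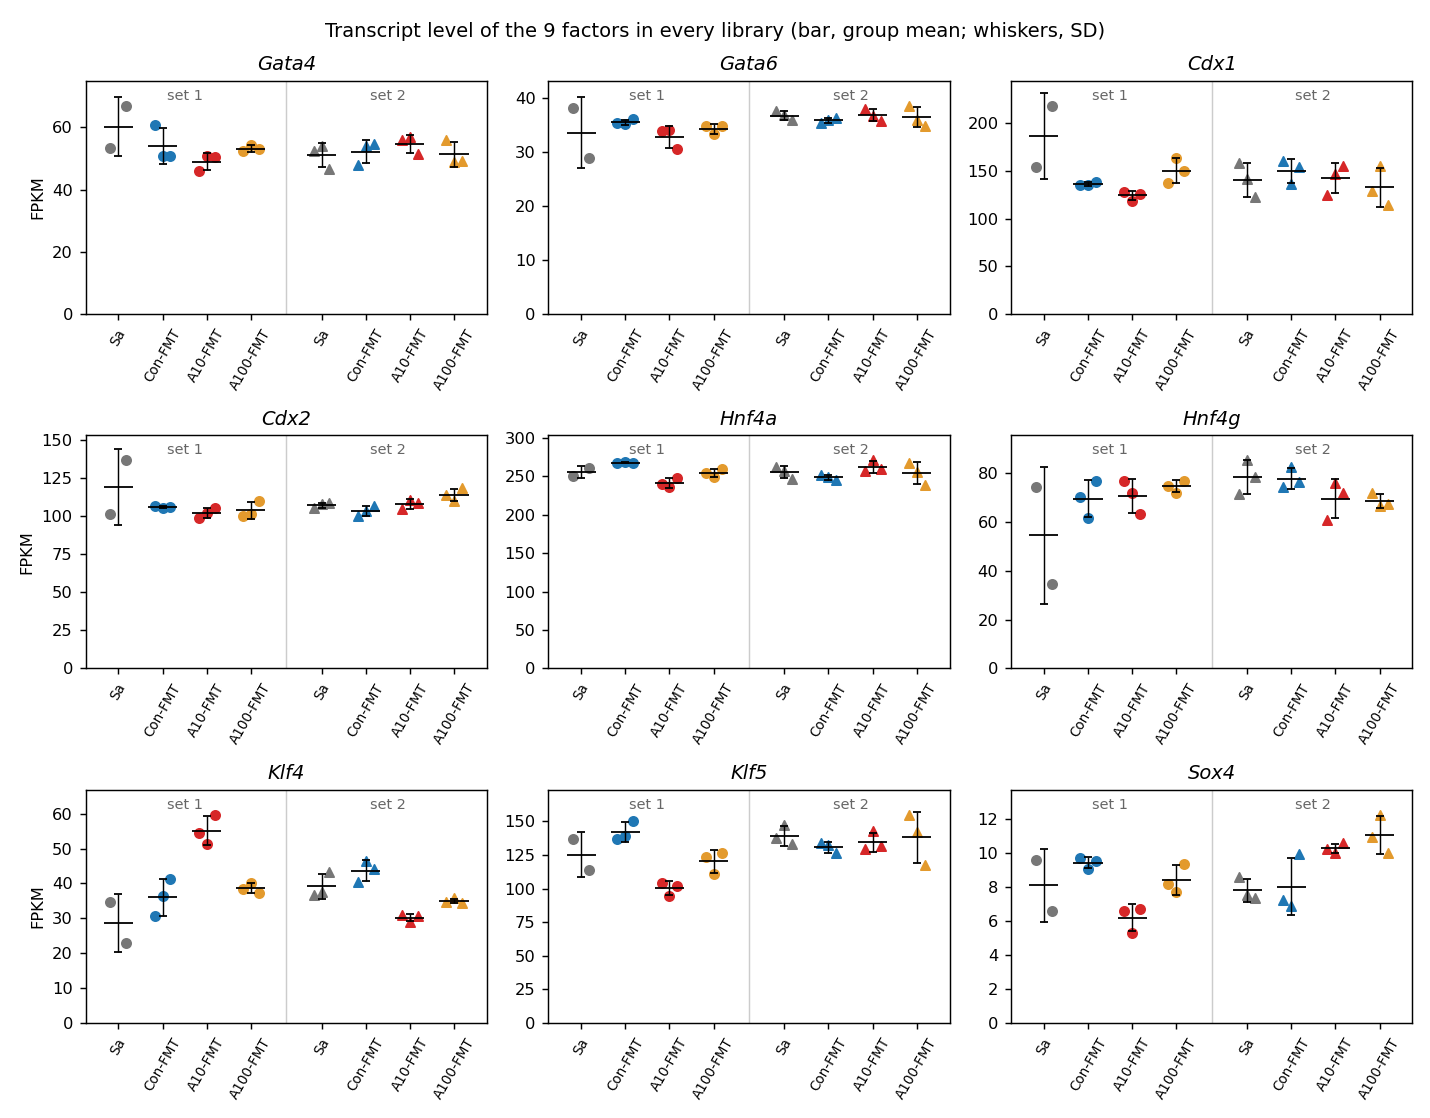
FPKM of each factor in each library (points; circles, set 1; triangles, set 2), with the mean and SD of each group of 3 libraries (2 for Sa of set 1). Klf4 was high and Klf5 and Sox4 low in the 3 A10-FMT libraries of set 1, while Hnf4a stayed between 236.09 and 270.72 FPKM throughout, and the 2 Sa libraries of set 1 lay far apart for most factors.

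Gata4 (NCBI Gene 14463, chr14:63198914-63271712, GRCm38.p6) lay between 45.86 and 60.65 FPKM in the 22 libraries. In set 1 the group means were 54 ± 5.75 FPKM for Con-FMT, 49 ± 2.71 for A10-FMT and 53.2 ± 1.11 for A100-FMT, and in set 2 they were 51 ± 3.8 for Sa, 52.2 ± 3.82 for Con-FMT, 54.8 ± 2.86 for A10-FMT and 51.3 ± 3.9 for A100-FMT (SD, n = 3). Between any 2 groups of 3 libraries in a set, 16.7% to 42.1% of all genes tested had libraries that did not overlap, which is the background for every statement on overlap that follows. In set 1 the A10-FMT libraries (45.86 to 50.73 FPKM) overlapped Con-FMT but lay below A100-FMT (52.25 to 54.41 FPKM), and in set 2 the 4 groups overlapped. Gata6 (NCBI Gene 14465, chromosome 18) had group means of 32.8 to 36.8 FPKM in the 7 groups of 3 libraries, with A10-FMT at the low end in set 1 (32.8 ± 2.03) and at the high end in set 2 (36.8 ± 1.08). The Con-FMT libraries of set 1 (35.18 to 36.02 FPKM) lay above both other FMT groups of that set, and the groups of set 2 overlapped.

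Cdx1 (NCBI Gene 12590, chromosome 18) ran from 113.96 to 163.72 FPKM in the 22 libraries. In set 1 the 3 Con-FMT libraries held 135.33, 135.66 and 138.83 FPKM, the A10-FMT libraries 128.34, 119.05 and 125.64 FPKM, and the A100-FMT libraries 137.14, 163.72 and 149.71 FPKM. A10-FMT lay below both other FMT groups there without overlap, and the 4 groups of set 2 overlapped. Cdx2 (NCBI Gene 12591, chr5:147300900-147307249) ran from 99.09 to 118.19 FPKM in the 22 libraries, with group means of 102 ± 3.27 FPKM in A10-FMT of set 1 and 114 ± 4.2 FPKM in A100-FMT of set 2 at the ends of the range over the 7 groups of 3 libraries (SD, n = 3). The A100-FMT libraries of set 2 (109.8 to 118.19 FPKM) lay above Con-FMT of that set (99.78 to 106.7 FPKM) without overlap.

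Hnf4a (NCBI Gene 15378, chr2:163506811-163572907) held 267.67, 268.31 and 267.33 FPKM in the Con-FMT libraries of set 1 and 240.06, 236.09 and 248.25 FPKM in the A10-FMT libraries. The groups did not overlap, as for 42.1% of all genes, and the mean fell by 9.8%. In set 2 the Con-FMT libraries held 251.52, 249.64 and 245.14 FPKM and the A10-FMT libraries 256.37, 270.72 and 259.84 FPKM, so that A10-FMT was the higher one, again without overlap, as for 25.3% of all genes. Hnf4g (NCBI Gene 30942, chr3:3508030-3659800) ranged from 60.69 to 85.22 FPKM in the 22 libraries, with group means between 68.6 ± 2.96 FPKM (A100-FMT of set 2) and 78.4 ± 6.88 FPKM (Sa of set 2, SD, n = 3). Its groups overlapped within set 1, and in set 2 A100-FMT (66.58 to 72.01 FPKM) lay below Con-FMT (74.21 to 82.39 FPKM).

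Klf4 (NCBI Gene 16600, chr4:55527137-55532475) held 54.48, 51.43 and 59.67 FPKM in the A10-FMT libraries of set 1. No other library of the 23 reached these values. Con-FMT of set 1 held 30.59, 36.5 and 41.15 FPKM, A100-FMT 38.52, 40.27 and 37.28 FPKM, and Sa 34.64 and 22.88 FPKM. In set 2 the order turned over: A10-FMT had 30.96, 28.97 and 30.75 FPKM, below A100-FMT (34.75, 35.77 and 34.51 FPKM), Sa (36.57, 37.67 and 43.17 FPKM) and Con-FMT (40.41, 46.59 and 44.11 FPKM). None of the A10-FMT libraries of set 2 overlapped another group of that set.

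Klf5 (NCBI Gene 12224, chr14:99298691-99313412) went the other way in set 1. A10-FMT held 104.07, 94.18 and 102 FPKM, the lowest values of the 23 libraries. Con-FMT held 136.87, 139.23 and 150.32 FPKM, A100-FMT 123.76, 110.61 and 126.07 FPKM, and Sa 137.11 and 113.43 FPKM. In set 2 the libraries of the 4 groups were mixed between 117.26 and 154.76 FPKM, and both of these ends were A100-FMT libraries.

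Sox4 (NCBI Gene 20677, chr13:28948919-28953699) was the lowest of the 9 factors, with 6.56, 5.29 and 6.72 FPKM in A10-FMT of set 1 against 9.69, 9.05 and 9.53 FPKM in Con-FMT, 8.15, 7.67 and 9.37 FPKM in A100-FMT, and 9.59 and 6.58 FPKM in Sa. The A10-FMT libraries overlapped Sa replicate 3 and lay under both other FMT groups. In set 2 A10-FMT held 10.25, 10 and 10.55 FPKM and A100-FMT 10.95, 12.23 and 9.99 FPKM, above all Con-FMT libraries (7.22, 6.86 and 9.92 FPKM) and all Sa libraries (8.59, 7.51 and 7.33 FPKM).

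Both groups given contents of AOS-dosed donors were set against Con-FMT, to ask whether the donors' dose bore on these factors; the comparisons share the Con-FMT libraries. In set 1, Klf4 rose and Klf5, Sox4 and Hnf4a fell in A10-FMT. These were 4 of the 9 factors, where 1891 of the 11337 genes tested were called (16.7%). Klf4 was 1.53 times as high as in Con-FMT (log2 change of FPKM + 1 of 0.61 ± 0.12 SE, adjusted p = 0.00259, limma with Benjamini-Hochberg adjustment). Klf5 fell by 29.6% of its mean (log2 change -0.50 ± 0.09, adjusted p = 0.00159, limma) and Sox4 fell by 34.3% (log2 change -0.54 ± 0.13, adjusted p = 0.00892, limma). Those calls were made under all 34 alternatives tried, with log2 changes of 0.50 to 0.70 for Klf4, -0.56 to -0.40 for Klf5 and -0.61 to -0.42 for Sox4. The Hnf4a change was small (log2 change -0.15 ± 0.05, adjusted p = 0.0301, limma) and was called under 26 of the 34 alternatives, but neither with trimmed-mean scaling (log2 change -0.08, adjusted p = 0.295, limma) nor with GC content and length taken out (log2 change -0.06, adjusted p = 0.278, limma).

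The remaining 5 factors were not called in that comparison. Gata4 had a log2 difference of -0.13 (95% interval -0.32 to 0.05), Gata6 of -0.11 (-0.26 to 0.04), Cdx1 of -0.14 (-0.40 to 0.13), Cdx2 of -0.05 (-0.21 to 0.10) and Hnf4g of 0.02 (-0.34 to 0.39). The median over the 9 factors was -0.13, and that of all genes tested -0.08. Among all genes 590 rose and 1301 fell, a split that changed to 846 and 680 with trimmed-mean scaling and to 1170 and 967 with GC content and length taken out.

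In A10-FMT of set 2 none of the 9 factors was called against Con-FMT by limma, with 43 genes called in all (0.379%), while 1348 genes had an unadjusted p under 0.05, 2 of the factors, Klf4 and Sox4, among them. Klf4 was at 0.692 times the Con-FMT mean (log2 change -0.52 ± 0.12, adjusted p = 0.0583, limma), and Sox4 at 1.28 times (log2 change 0.34 ± 0.13, adjusted p = 0.283, limma). Klf5 differed by 0.04 (95% interval -0.15 to 0.23) and Hnf4a by 0.08 (-0.02 to 0.17) on the log2 scale. The Sa libraries of set 1 enter the spread that all groups share in this fit. Klf4 in set 2 was called under 9 of the 34 alternatives, with log2 changes of -0.57 to -0.47 and adjusted p of 0.00112 to 0.341 (limma) over all 34, and Sox4 under 1 of them. One of the 9 was the fit without both Sa libraries, a setting chosen after the data were seen (adjusted p = 0.00952, limma), where 276 of 11355 genes were called (2.43%). In that setting the same 4 factors were called in set 1, with 32.8% of all genes.

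In A100-FMT against Con-FMT, none of the 9 factors was called by limma in set 1, where 46 genes were called (0.406%) and 1282 had an unadjusted p under 0.05, nor in set 2, where 0 genes were called (0%) and 1270 had an unadjusted p under 0.05. Klf5 (log2 change -0.24 ± 0.09, adjusted p = 0.301, limma) was the only factor with an unadjusted p under 0.05 in set 1. In set 2 these were Sox4 (log2 change 0.43 ± 0.13, adjusted p = 0.211, limma) and Klf4 (log2 change -0.31 ± 0.12, adjusted p = 0.328, limma). Without both Sa libraries of set 1, Sox4 rose in A100-FMT of set 2 (adjusted p = 0.0478, limma), with 2.59% of all genes called.

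**Figure D2:**
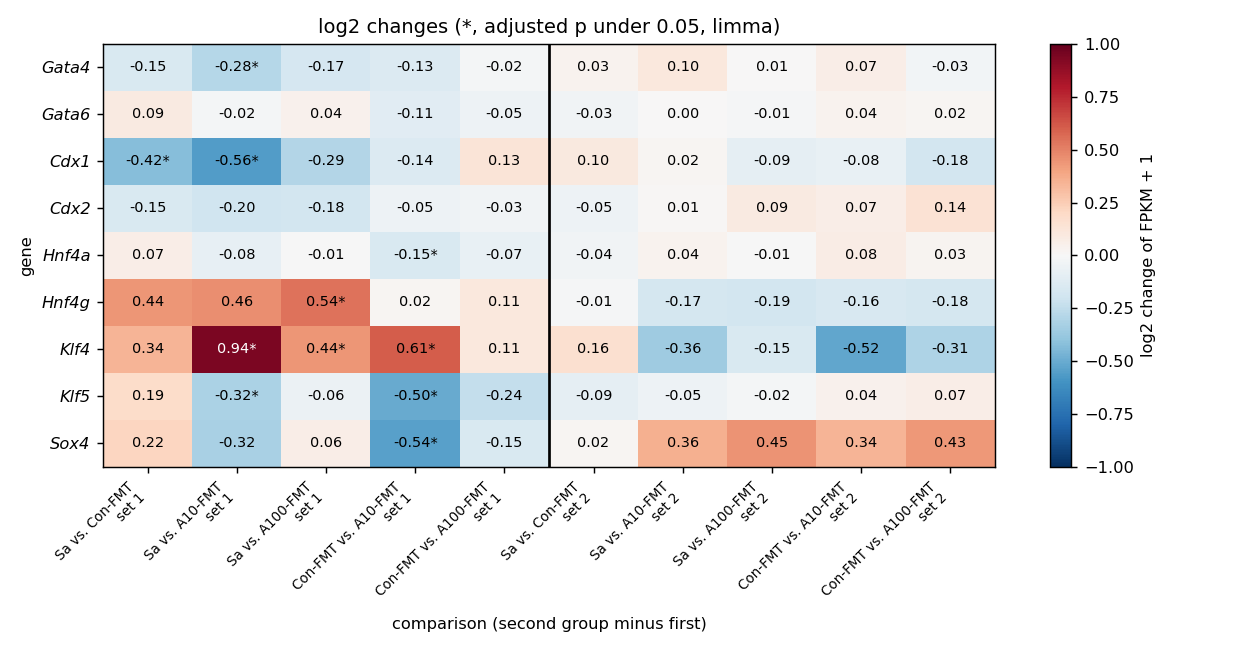
log2 change of FPKM + 1 of each factor (lines) in each comparison within a set (columns; the second group minus the first; red, higher; blue, lower; an asterisk marks an adjusted p under 0.05 by limma). The 5 columns on the left are set 1 and the 5 on the right are set 2, where no factor was called; the values of Klf4 in Con-FMT vs. A10-FMT were 0.61 in set 1 and -0.52 in set 2.

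The difference between the sets was itself tested, as an interaction that was added after the values were seen. The A10-FMT effect over Con-FMT differed between set 2 and set 1 for 4 of the 9 factors, with 2354 of all genes called (20.8%). It was lower in set 2 for Klf4 (difference of log2 changes -1.12 ± 0.17, adjusted p = 0.000363, limma) and higher in set 2 for Sox4 (0.88 ± 0.18, adjusted p = 0.003, limma), Klf5 (0.54 ± 0.13, adjusted p = 0.00627, limma) and Hnf4a (0.22 ± 0.06, adjusted p = 0.0188, limma). The difference for Hnf4a was 0.12 with trimmed-mean scaling (adjusted p = 0.258, limma) and 0.10 with GC content and length taken out (adjusted p = 0.207, limma), and was not called in either. All 3 A10-FMT libraries were above all 3 Con-FMT libraries for Klf4 in set 1 and below them in set 2, and for Hnf4a and Sox4 below them in set 1 and above them in set 2. Of all genes tested, 14.6% separated in both sets with the direction turned. For the A100-FMT effect none of the 9 was called by limma, with 0 of all genes (0%) and 1483 genes at an unadjusted p under 0.05, among them Sox4 (0.59 ± 0.18, adjusted p = 0.197), Klf4 (-0.42 ± 0.17, adjusted p = 0.295) and Klf5 (0.31 ± 0.13, adjusted p = 0.308). Set and any difference in time or handling between the codes cannot be told apart.

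Sequence upstream of the moved factors is shown because Klf4 rose where Sox4 and Hnf4a fell. RefSeq promoter windows (GRCm38.p6, from 250 bases before to 50 bases after the start) were at hand for Klf4, Sox4, Hnf4a (2 start sites) and Cdx2. Capitals mark the motifs searched on both strands, the CACCC box (CACCC or GGGTG) and the GC box (GGGCGG or CCGCCC), to which Krüppel-like factors bind, and a GATA motif (AGATAA or TTATCT). Of 32851 windows of this length, 57.5% held a CACCC box, 35.7% a GC box and 11.2% the GATA motif.
Klf4, chr4:55532426-55532725, minus strand: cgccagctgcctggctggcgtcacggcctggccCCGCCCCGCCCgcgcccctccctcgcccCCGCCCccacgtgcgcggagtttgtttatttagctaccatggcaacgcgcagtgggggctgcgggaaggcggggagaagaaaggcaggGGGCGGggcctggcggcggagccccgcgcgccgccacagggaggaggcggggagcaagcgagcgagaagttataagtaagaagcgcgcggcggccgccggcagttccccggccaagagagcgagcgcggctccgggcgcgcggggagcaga
Sox4, chr13:28953650-28953949, minus strand: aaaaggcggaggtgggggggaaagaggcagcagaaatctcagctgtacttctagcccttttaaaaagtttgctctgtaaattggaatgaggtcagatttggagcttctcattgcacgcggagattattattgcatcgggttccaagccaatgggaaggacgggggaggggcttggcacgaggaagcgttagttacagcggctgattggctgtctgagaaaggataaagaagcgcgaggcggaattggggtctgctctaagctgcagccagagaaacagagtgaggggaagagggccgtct
Hnf4a, upstream start, chr2:163506607-163506906, plus strand: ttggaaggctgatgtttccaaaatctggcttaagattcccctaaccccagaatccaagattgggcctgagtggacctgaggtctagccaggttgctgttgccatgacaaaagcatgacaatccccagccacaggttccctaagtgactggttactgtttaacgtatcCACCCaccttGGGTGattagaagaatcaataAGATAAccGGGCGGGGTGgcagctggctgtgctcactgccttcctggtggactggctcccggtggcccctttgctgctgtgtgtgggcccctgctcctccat
Hnf4a, downstream start, chr2:163546905-163547204, plus strand: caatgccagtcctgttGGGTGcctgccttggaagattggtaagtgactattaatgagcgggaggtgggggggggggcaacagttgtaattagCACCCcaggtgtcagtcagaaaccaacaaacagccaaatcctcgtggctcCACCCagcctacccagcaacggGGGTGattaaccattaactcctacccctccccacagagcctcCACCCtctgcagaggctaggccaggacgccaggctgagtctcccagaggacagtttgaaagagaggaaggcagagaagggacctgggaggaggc

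The Klf4 window had 4 GC boxes and no CACCC box, with a GC content of 74.3% against a median of 52.7% for all windows. The Sox4 window, at 52% GC, held none of the 3 motifs. The upstream Hnf4a window held 3 CACCC boxes, 1 GC box that overlaps one of them, and 1 GATA motif, and the downstream window 5 CACCC boxes. The expression table gives 1 value for Hnf4a and does not separate its start sites. These matches describe the letters in the windows. Binding was not measured, and control of one factor by another was not tested.

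What FMT changed relative to saline was asked by comparing each FMT group with Sa. In set 1, 1 of the 9 factors was called in Con-FMT (26.9% of all genes called), 4 in A10-FMT (32%) and 2 in A100-FMT (35.2%), so the shares of factors called were near or below those of all genes in Con-FMT and A100-FMT. The 3 comparisons share the same 2 Sa libraries, and none of these 7 calls was made with only the compared groups in the fit or with array weights. Klf4 rose relative to Sa in the A10-FMT libraries (log2 change 0.94 ± 0.13, adjusted p = 0.000525, limma) and in those of A100-FMT (0.44 ± 0.13, adjusted p = 0.0197, limma). Cdx1 fell in Con-FMT (-0.42 ± 0.14, adjusted p = 0.0386, limma) and with A10-FMT (-0.56 ± 0.14, adjusted p = 0.00816, limma). Klf5 (-0.32 ± 0.10, adjusted p = 0.0238, limma) and Gata4 (-0.28 ± 0.10, adjusted p = 0.038, limma) fell in A10-FMT, and Hnf4g rose in A100-FMT (0.54 ± 0.19, adjusted p = 0.0391, limma). With each library left out in turn, the Klf5 change ran from -0.45 to -0.18 and was called in 21 of 23 fits.

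Without Sa replicate 3 the single Sa library left was assumed to vary like the other groups, and other factors were called. In A10-FMT these were Klf4 (log2 change 0.65, adjusted p = 0.00957, limma), Klf5 (-0.45, adjusted p = 0.0266, limma), Sox4 (-0.56, adjusted p = 0.0376, limma) and Gata6 (-0.21, adjusted p = 0.0451, limma), with 8.12% of all genes called. None was called in Con-FMT (1 gene called, 0.00881%) or in A100-FMT (27 genes called, 0.238%). The Cdx1 change in Con-FMT then shrank to -0.18, that of Hnf4g in A100-FMT to 0.00, that of Klf4 in A100-FMT to 0.15, that of Cdx1 in A10-FMT to -0.31 and that of Gata4 in A10-FMT to -0.13, none of which was called. With the column of the description in place of that library, the same 4 factors were called in A10-FMT (33.8% of all genes) and none in the other groups. Over the 3 comparisons together, 4840 of 34035 gene tests (14.2%) were called in that setting, 3829 of them in A10-FMT.

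In set 2 no factor was called against Sa by limma. The share of all genes called was 0.0353% for Con-FMT, 0.423% for A10-FMT and 0.0353% for A100-FMT. At an unadjusted p under 0.05 there were 651 genes in Con-FMT, none of them a factor, 1627 in A10-FMT with 2 factors (Klf4 with a log2 change of -0.36 ± 0.12 and Sox4 with 0.36 ± 0.13) and 1606 in A100-FMT with 1 factor (Sox4 with 0.45 ± 0.13). Without Sa replicate 3 of set 1, Klf4 in A10-FMT (adjusted p = 0.0357, limma; 3.43% of all genes called) and Sox4 in A100-FMT (adjusted p = 0.0326, limma; 5.08%) of set 2 were called. Averaged over both sets, none of the 9 factors was called by limma in Con-FMT (0.75% of all genes called), A10-FMT (0.132%) or A100-FMT (0.891%). At an unadjusted p under 0.05 there were 2659 genes with 1 factor in Con-FMT, 2260 genes with 3 factors in A10-FMT and 2987 genes with 1 factor in A100-FMT. The 3 in A10-FMT were Klf4 (log2 change 0.29 ± 0.09), Cdx1 (-0.27 ± 0.10) and Klf5 (-0.18 ± 0.07). The Klf4 average joins effects of opposite sign, 0.94 in set 1 and -0.36 in set 2. These averages hold Sa replicate 3 of set 1. Without it, the set 1 part was 0.65 for Klf4, -0.31 for Cdx1 and -0.45 for Klf5.

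The effects over Sa differed between the sets for 4 factors in A10-FMT (28.4% of all genes), 2 in A100-FMT (26.8%) and 0 in Con-FMT (0.00882%), where 3893 genes, 1 factor among them, had an unadjusted p under 0.05. In A10-FMT the effect was lower in set 2 for Klf4 (difference of log2 changes -1.30 ± 0.18, adjusted p = 0.00024, limma) and higher for Sox4 (0.68 ± 0.19, adjusted p = 0.0145, limma), Cdx1 (0.58 ± 0.19, adjusted p = 0.0312, limma) and Gata4 (0.39 ± 0.13, adjusted p = 0.0385, limma). In A100-FMT it was lower for Hnf4g (-0.73 ± 0.26, adjusted p = 0.0467, limma) and Klf4 (-0.60 ± 0.18, adjusted p = 0.0234, limma). Without Sa replicate 3 of set 1 the calls for Klf4 (-1.01) and Sox4 (0.92) in A10-FMT were made, with 20.4% of all genes called, and none of the others (Cdx1 0.33 and Gata4 0.23 in A10-FMT, Hnf4g -0.19 and Klf4 -0.31 in A100-FMT). Averaged over the 4 treatments, 1 factor, Klf5, was higher in set 2 than in set 1 (log2 change 0.16 ± 0.05, adjusted p = 0.0324, limma), where 13.3% of all genes were called, and this call was made in 11 of 23 fits that left out 1 library each, with log2 changes of 0.13 to 0.20, and not in the other 12. From set 1 to set 2 its mean rose most in A10-FMT (100 to 135 FPKM). It also rose in Sa (125 to 139) and A100-FMT (120 to 138) but fell in Con-FMT (142 to 131). Klf7, a Krüppel-like factor with a mean of 1.78 FPKM, was also higher in set 2 (0.22 ± 0.06, adjusted p = 0.0301, limma).

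Genes that depend on these factors or mark the cells they work in were read in the same comparison of A10-FMT with Con-FMT. In set 1, where 16.7% of all genes were called (590 risen and 1301 fallen), 18 of 43 enterocyte target genes tested rose and none fell, with a median log2 change of 0.37 beside -0.08 for all genes. Among them were Apoa1, an apolipoprotein of chylomicrons (0.80 ± 0.19, adjusted p = 0.00893, limma), Rbp2, the cellular retinol-binding protein of enterocytes (0.92 ± 0.14, adjusted p = 0.000931, limma), and Anpep, a brush-border peptidase (0.46 ± 0.08, adjusted p = 0.00194, limma). Of 12 genes of the proximal small intestine 6 rose and none fell (median 0.55), with Fabp1 at 0.79 ± 0.21 (adjusted p = 0.0159, limma) and Apoa4 at 0.87 ± 0.17 (adjusted p = 0.00316, limma), while Adh1, an alcohol dehydrogenase, was at 0.28 ± 0.17 (adjusted p = 0.282, limma). Of 11 genes of the distal small intestine 4 rose and none fell (median 0.44), with Fabp6, the ileal bile acid-binding protein, at 0.74 ± 0.27 (adjusted p = 0.0645, limma), Muc3, a membrane mucin, at 0.44 ± 0.20 (adjusted p = 0.143, limma) and Tff3, a trefoil peptide, at 0.22 ± 0.15 (adjusted p = 0.312, limma). Genes of both ends thus had medians of the same sign. The lists are not separate, since Lct, Fabp1, Apoa4 and Cyp3a11 of the proximal list and Cubn and Mep1a of the distal list are also enterocyte targets.

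Genes of dividing crypt cells had the opposite sign, that of most calls among all genes (1301 of 1891 fell). Of 15 crypt proliferation genes 11 fell and none rose (median -0.32), among them Pcna, the DNA polymerase clamp (-0.22 ± 0.07, adjusted p = 0.0326, limma), and Top2a, a topoisomerase of dividing cells (-0.45 ± 0.12, adjusted p = 0.0201, limma), while Birc5, survivin, was at -0.20 ± 0.09 (adjusted p = 0.124, limma). Of 10 stem cell genes 7 fell and none rose (median -0.40), among them Olfm4 (-0.45 ± 0.15, adjusted p = 0.0476, limma), Slc12a2, an ion cotransporter (-0.59 ± 0.19, adjusted p = 0.0375, limma), and Smoc2 (-0.44 ± 0.07, adjusted p = 0.00114, limma). The medians of these 5 lists had the same signs under quantile normalization, trimmed-mean scaling, GC content and length taken out, the description's column and the fit without both Sa libraries of set 1, but the calls depended on the setting. With trimmed-mean scaling, where 846 of all genes rose and 680 fell, 24 enterocyte targets rose, 6 of 15 crypt proliferation genes fell and 4 of 10 stem cell genes fell, and without both Sa libraries, where 32.8% of all genes were called, 28 enterocyte targets rose and 14 crypt proliferation genes fell. In bulk tissue, fewer cells of a type and less RNA per cell cannot be told apart. The part of cell make-up in the values of Klf4, Klf5 and Sox4 was not tested. Among the other cell types of the epithelium, beside 16.7% of all genes called, 2 of 11 goblet cell genes rose (median 0.11), 1 of 11 enteroendocrine genes rose (median -0.10), none of 10 Paneth cell genes was called (median -0.20) and the 1 tuft cell gene tested, Trpm5, rose (0.49). Smooth muscle markers summed to 83.18, 85.35 and 88.43 FPKM in Con-FMT against 76.54, 65.92 and 72.42 FPKM in A10-FMT, with none of 3 called (median -0.22). Most of that sum was Mylk (mean of 66.9 FPKM), and 6 of the 9 markers had a mean below 0.1 FPKM. Of 10 fibroblast markers 8 had a mean below 0.1 FPKM. Fbln1, the 1 fibroblast gene tested, was at 0.31 and not called, and at -0.26 in set 2. In set 1 it rose with trimmed-mean scaling (0.38) and with GC content and length taken out (0.37). The part of these cell types in the values of the factors was not tested.

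In set 2, where 0.379% of all genes were called, the medians of these 5 lists had the other sign. The enterocyte targets had a median of -0.39, with 5 of 43 fallen and none risen, and the proximal genes of -0.47, with 2 of 12 fallen, Apoa4 (-0.96 ± 0.17, adjusted p = 0.0315, limma) among them. The distal genes had a median of -0.25 and none of 11 called, the crypt proliferation genes one of 0.14 and none of 15 called, and the stem cell genes one of 0.20 and none of 10 called, while all genes tested had a median of 0.05. Without both Sa libraries of set 1, 17 of the 43 enterocyte targets were called as fallen in this set, with 2.43% of all genes called. The T cell markers had a median of -1.30 there, with none of 4 called by limma (Gzma -1.59 ± 0.44, adjusted p = 0.128), and summed to 50.46, 115.21 and 157.79 FPKM in Con-FMT against 35.86, 30.35 and 29.72 FPKM in A10-FMT of set 2. Their part in the values of the factors was not tested. The Paneth cell genes had a median of 0.33, the enteroendocrine genes of -0.24, the goblet cell genes of -0.08 and Trpm5 a value of -0.22, with none called.

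**Figure D3:**
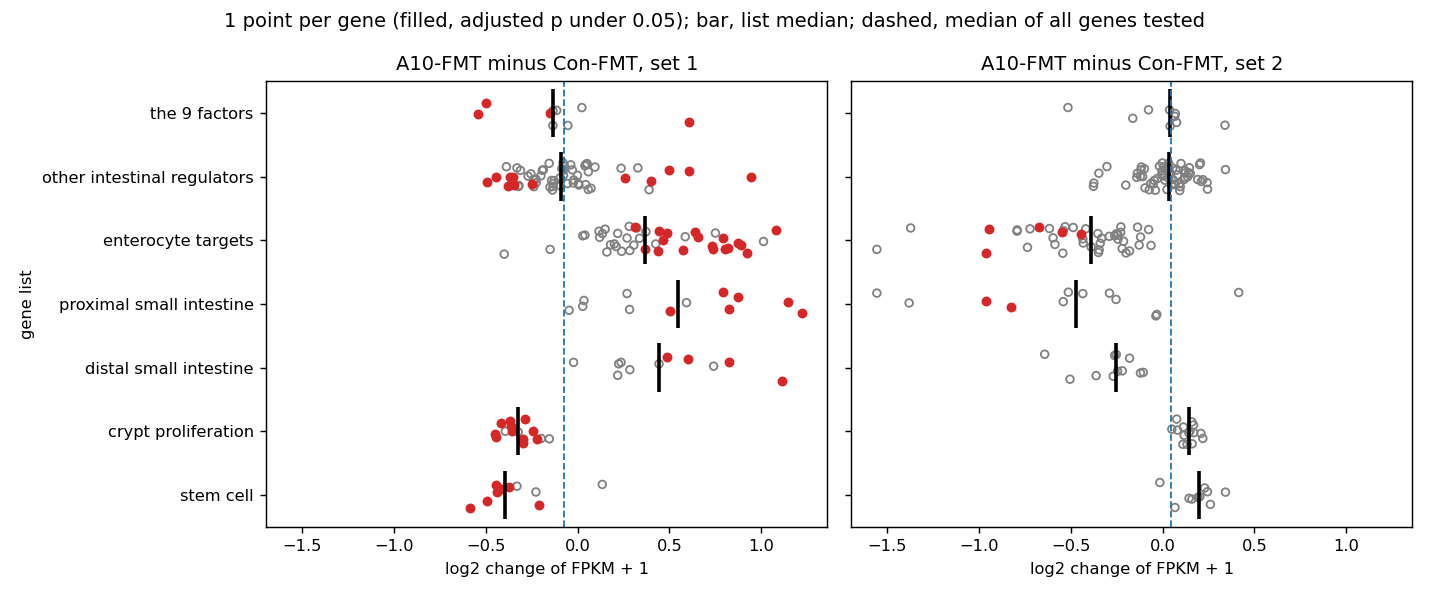
log2 change of FPKM + 1 from Con-FMT to A10-FMT for each tested gene of 7 lists in set 1 (left) and set 2 (right), on the same scale; filled points passed an adjusted p of 0.05 by limma, bars are list medians, and the dashed line is the median of all genes tested. The enterocyte targets had medians of 0.37 and -0.39 and the crypt proliferation genes of -0.32 and 0.14 in set 1 and set 2.

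By library, the summed level of the enterocyte targets ran from 11167 FPKM in A10-FMT replicate 2 of set 2, which also had the lowest Klf4 level apart from Sa replicate 3 of set 1, to 25953 FPKM in A10-FMT replicate 3 of set 1, which had the highest. The crypt proliferation genes summed to 540.05, 557.59 and 526.08 FPKM in A10-FMT of set 1, the lowest of the 23 libraries, and to 731.32, 744.29 and 695.99 FPKM in A10-FMT of set 2. Klf5 and Sox4 were at their lowest or near it in the former libraries.

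**Figure D4:**
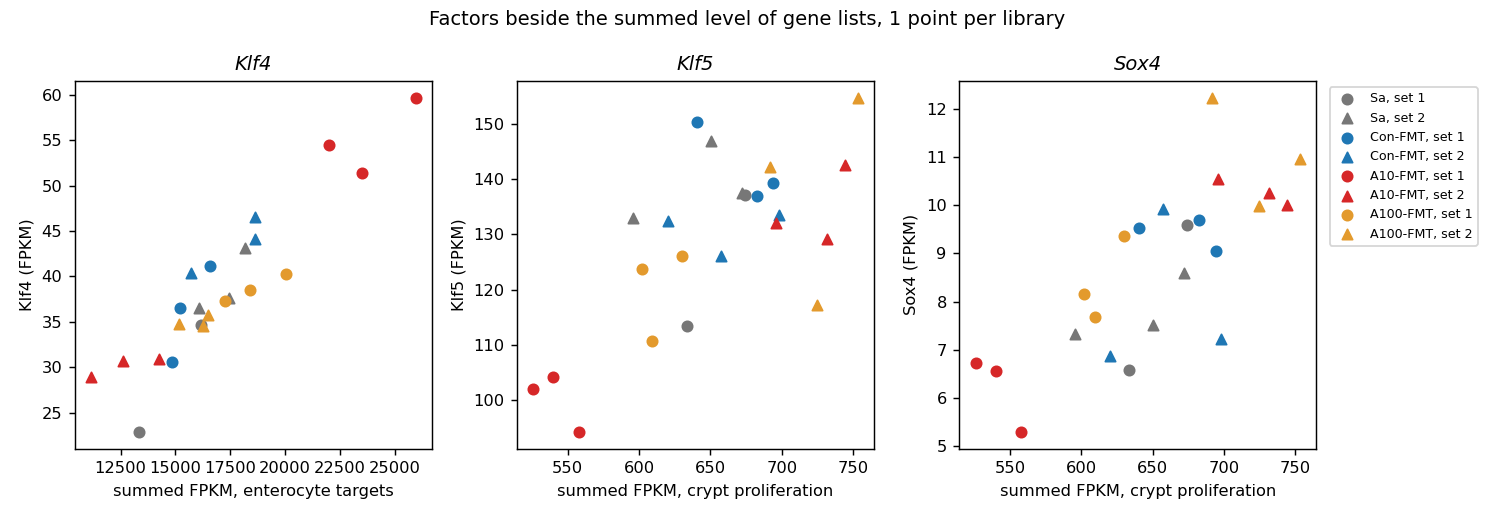
Klf4 against the summed FPKM of the enterocyte targets, and Klf5 and Sox4 against that of the crypt proliferation genes, with 1 point per library (colour, treatment; circles, set 1; triangles, set 2; the axes do not start at 0). The 3 A10-FMT libraries of set 1 lay at the upper right for Klf4 (51.43 to 59.67 FPKM) and at the lower left for Klf5 and Sox4.

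Other regulators of the intestine were read in A10-FMT of set 1 as well. Of 59 tested, 5 rose and 7 fell against Con-FMT, with a median of -0.09, where 16.7% of all genes were called. The balance depended on the setting, as it did for all genes. With trimmed-mean scaling 8 rose and 4 fell, and with GC content and length taken out 9 rose and 7 fell. Without both Sa libraries of set 1, 8 rose and 18 fell, where 32.8% of all genes were called. The largest rises were those of Pdx1, a homeobox factor of the duodenum and pancreas (0.94 ± 0.20, adjusted p = 0.00496, limma), Creb3l3, a membrane-bound factor of lipid metabolism (0.61 ± 0.12, adjusted p = 0.00357, limma), and Prdm1, a repressor known from the neonatal gut (0.50 ± 0.09, adjusted p = 0.00187, limma). The largest falls were those of Sox9, a factor of crypt base cells (-0.49 ± 0.10, adjusted p = 0.00327, limma), Nr5a2, a nuclear receptor of crypt cells (-0.44 ± 0.14, adjusted p = 0.0346, limma), and Klf13 (-0.38 ± 0.07, adjusted p = 0.00155, limma). Elf3, the most abundant of the list with 252 FPKM and an ETS factor of the epithelium, had a log2 difference of -0.16 ± 0.10 (adjusted p = 0.31, limma), Nfe2l2 of 0.00 ± 0.10 (adjusted p = 0.985, limma) and Esrra, an orphan nuclear receptor of mitochondrial genes, rose (0.26 ± 0.08, adjusted p = 0.0342, limma). Against Con-FMT, none of the 59 was called by limma in A10-FMT of set 2 (0.379% of all genes called) or in A100-FMT of set 1 (0.406%) or set 2 (0%). Averaged over both sets against Sa, 1 of 59 was called in A100-FMT, Tcf7l2, a mediator of Wnt signalling (0.26 ± 0.06, adjusted p = 0.0401, limma), near the share of all genes (0.891%).

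Paralogs and partners were also compared library by library after the group means had been taken out, in 8 relations over 23 libraries. None passed adjustment over the 8. Gata4 and Gata6 had Pearson's r of -0.30 (rho -0.02), Cdx1 and Cdx2 of 0.38 (rho 0.07), Hnf4a and Hnf4g of -0.16 (rho -0.01) and Klf4 and Klf5 of 0.35 (rho 0.16), each with an adjusted permutation p of 0.857 for r and 0.964 for rho. Without the 2 libraries farthest out on the first gene of each pair, r was -0.14, -0.22, -0.29 and 0.06. For the CDX and KLF pairs these were the 2 Sa libraries of set 1. For the GATA and HNF4 pairs Sa replicate 3 of set 1 stayed in. With single libraries left out, the sign turned in 2 of 23 fits each for the GATA (r up to 0.27), CDX (down to -0.22) and HNF4 pairs (up to 0.12). The KLF pair kept its sign in all 23. The strongest relation was that of Gata4 with the mean of the distal genes (r = -0.64, rho = -0.62, permutation p = 0.00911 for r and 0.014 for rho, adjusted 0.0729 and 0.112), and its r was -0.58 without the 2 farthest libraries. With the proximal genes Gata4 had an r of -0.06 (rho -0.03; 0.03 without the 2 farthest), and with the crypt proliferation genes Klf5 had one of 0.27 (rho 0.30; 0.24) and Sox4 of 0.18 (rho 0.15; 0.12), all with an adjusted permutation p of 0.857 for r and 0.964 for rho.

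The genes whose pattern was most like that of each factor were sought among 8478 genes whose mean reached 5 FPKM, by Pearson's r of log2 values with set means taken out, over the 22 libraries without Sa replicate 3 of set 1. These libraries share treatments, and the values are descriptions. Klf4 was most like Slc27a4, a fatty acid transporter (r = 0.95), Cdhr2, a cadherin of microvilli (0.95), and Mpp1 (0.94). Klf5 was most like Rreb1 (0.93), Cdkn1b, a cell cycle inhibitor (0.91), and Ptprk (0.91). Sox4 was most like Lmnb2, a nuclear lamin (0.91), Samd1 (0.91) and Hspa4l (0.88), and Hnf4a like Chd4, a chromatin remodeller (0.91), Lrch1 (0.90) and Carmil1 (0.90). Lower values were found for Gata6 with Smarcd1 (0.82), Ergic1 (0.80) and Pcbp2 (0.79), Cdx2 with Dnaaf2 (0.81), Myg1 (0.77) and Ik (0.77), Hnf4g with Ctsh (0.79), Serinc1 (0.74) and Snx13 (0.73), Cdx1 with Pgap4 (0.74), Taf8 (0.72) and Rab29 (0.71), and Gata4 with Stim1 (0.74), Zc3hc1 (0.73) and Zfp553 (0.73). Among the factors themselves, Hnf4a and Klf5 were the most alike (0.83), Gata6 and Klf5 had an r of 0.69, and Klf4 and Sox4 had the most opposed patterns (-0.74). Of the paralogs, Gata4 and Gata6 had an r of 0.41, Cdx1 and Cdx2 of -0.32, Hnf4a and Hnf4g of -0.09 and Klf4 and Klf5 of -0.60. With Sa replicate 3 of set 1 included these were -0.15, 0.42, -0.17 and -0.42, so the sign of the GATA and CDX pairs turned with that library. With all 23 libraries, none of the 3 genes most like Gata6 or Sox4 was the same, while all 3 were for Klf5.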

How the data were processed

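TRIzol was used by the authors to isolate RNA for an Illumina HiSeq, and their methods give RPKM as the unit. The values they deposited are labelled FPKM per gene and library, in 1 table of 24 columns, with mm10 as genome build per the submitters' processing notes. The aligner, the counter and the read totals are not given in the sources used here. Values were tested as log2(FPKM + 1) with limma 3.58.1 in R 4.3.3 (1 mean per group over all 8 groups, moderated with a trend) for 11337 genes whose mean reached 1 FPKM, with Benjamini-Hochberg adjustment over these genes at 0.05. A fold change on this scale understates that of low genes. Relations used 100000 permutations within groups, or within sets where only set means were taken out (Python 3.11.15, NumPy 2.4.6, SciPy 1.17.1). Both were tested on simulated data.

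The factors and lists were chosen with earlier results of these data known. Named are the 9 factors, the 3 most abundant genes of the lists described, the 3 called regulators that changed most in each direction, Klf7, and the 3 genes most like each factor. Klf7 is named because the study measured its protein by Western blotting, as it did those of SOX4 and GATA4. Trpm5 and the libraries singled out were named after their values were seen.

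Settings also tried were every gene with any value above 0, a pseudocount of 0.1, a minimum mean of 5 FPKM, quantile or trimmed-mean scaling, only the compared groups, a replicate block, array weights, the description's column, GC content and length taken out (known for 92.86% of the genes) and each library left out. The fit without both Sa libraries of set 1 and the tests of whether differences between FMT groups differed by set were added after seeing the data.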

Additional observations from a re-analysis of the deposited data

Results flagged for a closer look

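The effect of A10-FMT over Con-FMT differed between the sets, by a test of the difference itself, for Klf4 (set 2 minus set 1, -1.12 on the log2 scale), Sox4 (0.88), Klf5 (0.54) and Hnf4a (0.22). That of Hnf4a was not called with trimmed-mean scaling (0.12), with GC content and length taken out (0.10) or without A10-FMT replicate 2 of set 2 (0.20). The effect of A10-FMT over Sa differed for Klf4 (-1.30), Sox4 (0.68), Cdx1 (0.58) and Gata4 (0.39), and that of A100-FMT over Sa for Hnf4g (-0.73) and Klf4 (-0.60). The comparisons with Sa share the Sa libraries, and those of set 1 rest on 2 libraries that lay far apart. With each library left out in turn, the difference for A100-FMT over Sa ran from -1.27 to -0.19 for Hnf4g (called in 3 of 23 fits) and from -0.89 to -0.31 for Klf4 (called in 21), and that for A10-FMT over Sa from 0.33 to 0.83 for Cdx1 (called in 16), from 0.23 to 0.54 for Gata4 (called in 17), from 0.44 to 0.92 for Sox4 (called in 22) and from -1.59 to -1.01 for Klf4 (called in 23). The ends nearest 0 for Hnf4g, Klf4, Cdx1 and Gata4 were those without Sa replicate 3 of set 1. Groups of 2 or 3 libraries were not searched for single outlying libraries.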

How the results depend on the processing

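Calls were summed over comparisons, so that a factor counts once in each comparison in which it was called. Each number is followed by the share of all gene tests in those comparisons that were called. Ranges with libraries left out have that share only at the ends for which libraries are named. In the 3 comparisons with Sa in set 1 there were 7 calls (31.4%). The number was 4 with all genes (13.8%), 0 with the compared groups alone (0.00882%), 0 with array weights (0%; weight 0.0859 for each Sa library of set 1), 4 with the description's column (14.2%), 3 with GC content and length taken out (20.7%), and 4 to 20 with single libraries left out, the ends being those without Sa replicate 3 (2.79%) and without Sa replicate 1 (61.2%) of set 1. In set 2 it was 0 (0.165%), and 3 with array weights (9.8%), 2 with the description's column (2.7%), 2 without both Sa libraries of set 1 (2.89%), and 0 to 2 with libraries left out (2 without Sa replicate 1 or 3 of set 1, 2.88% each). Over both sets it was 0 (0.591%), and 1 with the description's column (348 of 34035 tests) and 0 to 17 with libraries left out (17 without Sa replicate 1 of set 1, 50.4%). Between FMT groups it was 4 (4.37%), and 8 with array weights (11.2%) and 3 to 6 with libraries left out. The 6 were without Sa replicate 1 (9.87%) or 3 (9.85%) of set 1. The 3 were without any 1 Con-FMT library or A10-FMT replicate 1 or 2 of set 1 (2.17% to 3.64%). For the set difference of effects over Sa it was 6 (18.4%), and 3 with all genes (8.75%), 2 with the compared groups alone (4.41%), 0 with array weights (0%) and 2 to 17 with libraries left out (17 without Sa replicate 1 of set 1, 57.4%; 2 without Sa replicate 3 of set 1, 8.16%, or of set 2, 13%; 3 without A10-FMT replicate 3 of set 1, 15.9%, or replicate 2 of set 2, 15.5%). For set 2 against set 1 it was 1 (13.3%), and 0 with all genes (3.53%), trimmed-mean scaling (8.45%), array weights (0%), the description's column (7.38%) or GC content and length taken out (8.43%), and 0 to 4 with libraries left out (4 without Sa replicate 1 of set 1, 46.7%). For the set difference between FMT groups it was 4 (10.4%), and 3 to 4 with libraries left out. The 3 were without A10-FMT replicate 2 of set 2 (6.75%), and the other fits had 4 (6.46% to 19.5%).

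Klf5 in A10-FMT against Con-FMT of set 2 (0.04) turned to -0.0085 with GC content and length taken out and lay between -0.0013 and 0.0696 with libraries left out. The cause of these changes was not tested. With the replicate number as a block the numbers of calls were 6 (32.2%), 0 (0.0853%), 0 (0.423%), 4 (3.96%), 5 (18.6%) and 4 (9.89%) in the order above. Set 2 against set 1 is missing there and could not be fitted, because the blocks lie within sets. The deviations of same-numbered libraries from their group means had correlations of -0.35 to 0.32. Differently numbered libraries were not set beside them, so whether the numbers pair libraries was not tested.

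With only set means taken out, which leaves the differences between treatments in, the relations over libraries of Gata4 with the distal genes (-0.69), Klf5 with the crypt genes (0.65) and Sox4 with them (0.75) passed adjustment, but libraries were then permuted within sets, across treatments, so this is no test within groups. With libraries left out, Pearson's r ran from -0.71 to -0.58 for the first (past the threshold without A100-FMT replicate 3 of set 2), from 0.13 to 0.38 for the second and from -0.0138 to 0.31 for the third. It ran from -0.45 to 0.27 for Gata4 and Gata6, -0.22 to 0.53 for Cdx1 and Cdx2, -0.26 to 0.12 for Hnf4a and Hnf4g, 0.06 to 0.43 for Klf4 and Klf5 and -0.21 to 0.14 for Gata4 with the proximal genes. With the description's column the sign turned for Gata4 and Gata6 (0.26), Cdx1 and Cdx2 (-0.29), Hnf4a and Hnf4g (0.07004), Klf4 and Klf5 (-0.0702), Gata4 with the proximal genes (0.0031) and Sox4 with the crypt genes (-0.0018). With GC content and length taken out it turned for Gata4 and Gata6 (0.10), Cdx1 and Cdx2 (-0.0892), Hnf4a and Hnf4g (0.35), Gata4 with the proximal genes (0.0672), Klf5 (-0.11) and Sox4 (-0.29) with the crypt genes. It also turned for Hnf4a and Hnf4g with quantile normalization (0.61), for Gata4 with the proximal genes with trimmed-mean scaling (0.0134), and for Klf4 and Klf5 with only set means taken out (-0.42).

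The read depth is unknown, so no limit from depth can be given.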
